A study of Mus musculus with 23 samples.

Results

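The 32 genes described here are targets and partners of ATF4 in the integrated stress response, and they were taken by gene name from a fixed list. All 32 were in both deposited tables, which together hold 26522 genes, 22852 of them in both. Bulk liver RNA came from 23 mice fed WD for 16 weeks and killed in the fed state, with 11 males (5 controls and 6 LKO) and 12 females (6 of each genotype). Every animal carried B100, also the controls, and the groups are named B100-Control and B100-LKO in the labels. LKO denotes the hepatic Cpt1a ablation named in the title of the series. The driver of the ablation, the age of the mice and what distinguishes the controls beyond their name are not given in the sources used here. The control males used here are replicates 1, 2, 3, 4 and 6. Nothing in the labels says more than that the samples are separate livers, so p-values measure the spread between these samples.

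The integrated stress response is a shared answer to amino acid shortage, unfolded protein, haem deficiency, viral RNA and mitochondrial damage. A kinase phosphorylates the translation factor eIF2, general protein synthesis slows, and the mRNA of the transcription factor ATF4 is translated more efficiently, so that ATF4 protein can change without its transcript. ATF4 pairs with C/EBP proteins and activates genes for amino acid synthesis and import, for folate-dependent one-carbon metabolism in mitochondria, and for proteins that feed back on the response. In liver it also drives the secreted hormone Fgf21. RNA counts, as used here, report the transcripts and not the ATF4 protein.

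ATF4 with a C/EBP partner binds composite sites, and the form TGATGNAA (TTNCATCA when read on the other strand, N being any base) was searched on both strands of RefSeq promoters (build GRCm38.p6, 250 bases before to 50 after the start of each transcript). It was the only motif searched. Of the 32 genes, 28 were in the promoter table, and 9 of these (32.1 percent) held the motif, against 1219 of 27025 genes (4.51 percent) in the whole table. The 32 genes were chosen as targets and partners of ATF4, so these shares are a description and no test. The 9 were Asns, Atf3, Chac1, Jdp2, Nupr1, Pck2, Pycr1, Slc7a11 and Trib3, and Jdp2 also has promoters without the motif. Counted by promoter, 9 of 33 held it, against 1304 of 32851 (3.97 percent). The windows below show the 5 of these genes with the lowest genotype p in either sex, and the promoter of Atf4, which does not hold these letters. Capitals mark the motif, and each sequence is on the gene's own strand. The whole 300 bases are shown for Nupr1 (chr7:126625421-126625720, minus strand), where the motif begins 110 bases before the start, and for Atf4 (chr15:80254934-80255233, plus strand). For the others 60 bases around the motif are shown, from Jdp2 (chr12:85599357-85599416, plus strand), Asns (chr6:7693199-7693258, minus strand), Pycr1 (chr11:120643818-120643877, minus strand) and Pck2 (chr14:55540137-55540196, plus strand).
Nupr1: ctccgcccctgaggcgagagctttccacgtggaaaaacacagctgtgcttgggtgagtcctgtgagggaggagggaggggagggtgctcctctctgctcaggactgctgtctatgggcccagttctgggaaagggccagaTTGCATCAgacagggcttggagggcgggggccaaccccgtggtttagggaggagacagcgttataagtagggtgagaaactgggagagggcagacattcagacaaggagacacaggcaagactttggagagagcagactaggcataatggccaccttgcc
Jdp2: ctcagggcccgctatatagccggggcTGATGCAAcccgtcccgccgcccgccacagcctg
Asns: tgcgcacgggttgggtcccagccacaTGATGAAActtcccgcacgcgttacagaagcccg
Pycr1: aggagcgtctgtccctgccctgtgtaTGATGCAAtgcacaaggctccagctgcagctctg
Pck2: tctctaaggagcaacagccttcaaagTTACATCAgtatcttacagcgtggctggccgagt
Atf4: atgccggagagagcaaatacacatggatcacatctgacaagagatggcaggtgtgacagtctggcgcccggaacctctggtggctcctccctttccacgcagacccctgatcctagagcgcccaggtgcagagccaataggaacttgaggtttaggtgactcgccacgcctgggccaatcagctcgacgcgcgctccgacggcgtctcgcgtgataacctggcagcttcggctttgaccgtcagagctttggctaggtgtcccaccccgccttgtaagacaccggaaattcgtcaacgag
A match is a description of the letters and not evidence of binding. Mthfd1l, the only gene of the 32 called between genotypes, holds no match in its promoter window.

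Cpt1a, which encodes the carnitine palmitoyltransferase that admits long-chain fatty acids to mitochondria in liver, was examined first, as the targeted gene (chromosome 19, 3372334 to 3435733, plus strand, mm39). Expression is given as CPM, the read count relative to a library size scaled by TMM factors, on 1 scale for all 23 livers. Cpt1a was 357 ± 50.4 CPM in control males (SD, n = 5) and 63.1 ± 20.3 CPM in LKO males (SD, n = 6). It was 388 ± 59.2 CPM in control females and 75.9 ± 8.88 CPM in LKO females (SD, n = 6 each). The difference in log2(CPM + 1) was -2.53 in males (two-sided exact permutation p = 0.00433) and -2.33 in females (two-sided exact permutation p = 0.00216), the smallest p that the 462 and 924 splits can give. The 10 hepatocyte markers summed to 59120 to 111460 CPM over all livers, none of them at 0 throughout a group. Over the marker lists of 7 liver and blood cell types, edgeR called 1 gene between genotypes, Spp1 among the bile duct markers in females (log2 fold change 0.66, SE 0.12, adjusted p = 0.0135 by edgeR), where DESeq2 also called Col3a1, a stellate cell marker, in females. At an unadjusted edgeR p under 0.05, 6 of 10 stellate markers had higher means in LKO females, against 8.31 percent of all genes tested, and their part in the female results was not tested. Total counts per library ran from 14224665 to 19626662, and the 32 genes ranged from 0 to 17235 counts.

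Within a liver the 32 transcripts lay at very different levels, here compared per gene length as deposited FPKM. In control males Cebpb was highest (median 461 FPKM, range 429 to 782), followed by Atf5 (341, range 290 to 454). Both encode basic leucine zipper factors, and both were also the top 2 in the other 3 groups. The mitochondrial serine hydroxymethyltransferase Shmt2 came next in every group, with medians of 92.5 to 97.5 FPKM. Gpt2, the mitochondrial alanine aminotransferase, and Cth, the cystathionine lyase of cysteine synthesis, held the 2 places after it, in a different order in females and males, with ranges that overlapped. Atf4 had a median of 38.6 FPKM in control males (range 35.3 to 38.7) and 41.03 in control females (range 34.4 to 49.1). At the other end, the cystine transporter Slc7a11 and the mitochondrial folate enzyme Aldh1l2 had medians under those of the other 30 genes in every group, and neither passed the filter on low counts in any comparison. Each had 0 to 8 counts per library. The first enzyme of serine synthesis, Phgdh, was also low, at medians of 0.129 to 0.236 FPKM.

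**Figure D1:**
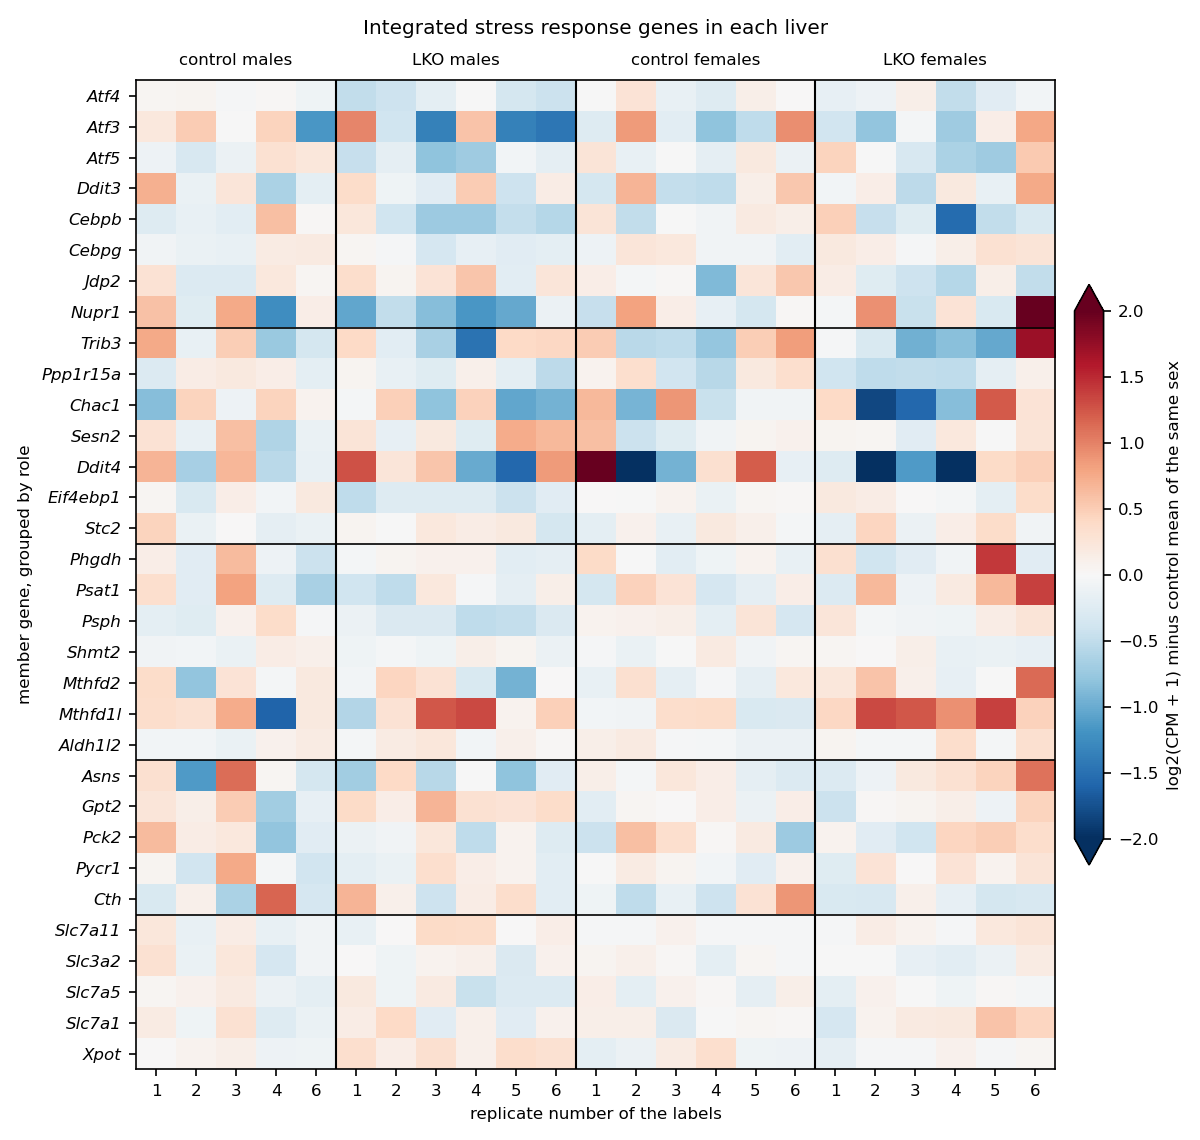
Each row is 1 of the 32 genes and each column 1 liver, in the order of the replicate numbers. Colour gives log2(CPM + 1) minus the control mean of the same sex, cut at 2 in either direction, and horizontal lines part the 5 roles. Atf4 and Eif4ebp1 are pale blue in most LKO males, Mthfd1l is red in the LKO females, and LKO female replicate 6 is dark red for Nupr1 and Trib3.

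In males, no gene of the set passed the test between LKO and control livers. Of the 32 genes, 29 passed the filter on low counts (not Stc2, Aldh1l2 and Slc7a11), and 0 of the 29 were called at an edgeR quasi-likelihood adjusted p under 0.05. Over all 13805 genes tested 1 was called, Cpt1a itself, a background of 0.00724 percent. DESeq2 called 0 of the 16 members to which it gave an adjusted p, and 107 of all 7374 such genes (1.45 percent). At an unadjusted edgeR p under 0.05 there were 7 of 29 members (24.1 percent), against 12.5 percent of all genes tested. Of these, Atf4, Atf5, Cebpb, Eif4ebp1, Nupr1 and Psph had lower means in LKO livers (20.7 percent of members, 7.22 percent of all genes) and Xpot a higher one (3.45 percent, against 5.23 percent). Of the 29 log2 fold changes 21 were below 0 (72.4 percent, against 47.9 percent of all genes), and their median was -0.16, against 0.01 for all genes. The count was 16 of 29 with a replicate block, 17 without control male replicate 1 or without control male replicate 3, and 18 with library size alone in place of TMM factors. The median moved to -0.047 without control male replicate 3, the library with the highest value of its group in 12 of 29 members. None of the 29 had groups without overlap, against 1.74 percent of all genes.

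Atf4 itself (chromosome 15, 80139385 to 80141742, plus strand) was 91.3, 92.1, 87.0, 90.7 and 83.2 CPM in control males 1, 2, 3, 4 and 6. In LKO males it was 62.9 at the lowest, 68.1 at the median and 88.1 at the highest. LKO male replicate 4, at 88.1, lay inside the control range, and the other 5 LKO livers lay below every control. The mean in LKO livers was 80.7 percent of the control mean (log2 fold change -0.31, SE 0.09, adjusted p = 0.274 by edgeR). Leaving out single livers moved the estimate between -0.38 and -0.28, and its adjusted p lay between 0.07102 and 0.511 in the alternatives. In bulk liver, fewer cells of a type and less RNA per cell cannot be told apart. The summed hepatocyte markers had medians of 75524 CPM in control males and 65902 CPM in LKO males, with ranges of 63551 to 93457 and 59120 to 84409, and their part in the result was not tested.

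Among the other transcription factors, Atf5, an ATF4 target that is itself induced by translation, was 683, 584, 675, 901 and 856 CPM in the control males. In LKO males it was 419, 588 and 704 CPM at the lowest, median and highest (log2 fold change -0.39, SE 0.16, adjusted p = 0.341 by edgeR). The groups overlapped, with 3 LKO livers below every control. Nupr1, a small stress-induced chromatin protein (chromosome 7, 126222421 to 126230033, minus strand), was 11.7, 6.18, 13.3, 2.57 and 8.21 CPM in the controls. In LKO males it was 2.78, 3.41 and 6.77 CPM at the lowest, median and highest, and its mean was 48.6 percent of the control mean (log2 fold change -1.05, SE 0.35, adjusted p = 0.284 by edgeR). Control male replicate 4 had the lowest value of all 11 males, so the groups overlapped. That library also had the lowest value of its group in 10 of 29 members. It lay far from the other control males over all genes. The mean chi-square per gene between its counts and theirs was 84.7 to 122, against 11.7 to 42.7 among the others. Of all libraries it had the fewest total counts (14224665), the fewest genes with counts (18232) and the lowest TMM factor (0.875). Cebpb, a C/EBP partner of ATF4, had control and LKO medians of 699 and 539 CPM (log2 fold change -0.44, SE 0.19, adjusted p = 0.375 by edgeR). Cebpg, a C/EBP protein without an activation domain, had 43.1 and 39.9 CPM (log2 fold change -0.16, SE 0.09, adjusted p = 0.489 by edgeR). Ddit3, which encodes the death-related factor CHOP, was 15.3, 8.06, 10.7, 5.39 and 7.69 CPM in controls and 6.44, 9.15 and 13.02 CPM in LKO males at the lowest, median and highest. Its fold change was 0.00 (SE 0.25, adjusted p = 0.998 by edgeR). Atf3, a repressor induced early in stress, was 49.2, 60.7, 42.4, 57.9 and 18.4 CPM in controls and 14.96, 23.9 and 84.6 CPM in LKO males, so that the LKO livers spanned the whole control range (log2 fold change -0.28, SE 0.47). Jdp2, a dimerization partner that represses transcription, had medians of 5.43 and 6.46 CPM (log2 fold change 0.25, SE 0.18).

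The feedback and effector proteins had a median log2 fold change of -0.16 over the 6 tested in males. Eif4ebp1, the translation inhibitor 4E-BP1 (chromosome 8, 27750357 to 27766702, plus strand), was 97.6, 76.9, 104, 91.1 and 110 CPM in the controls. In LKO males it was 66.6, 79.2 and 81.0 CPM at the lowest, median and highest, and 4 of the 5 controls lay above every LKO liver. The log2 fold change was -0.34 (SE 0.10, adjusted p = 0.268 by edgeR). Trib3, the pseudokinase that restrains ATF4, was 31.4, 16.2, 25.8, 10.4 and 14.1 CPM in controls and 5.88, 19.9 and 24.5 CPM in LKO males (lowest, median, highest). Its log2 fold change of -0.16 (SE 0.36, adjusted p = 0.900 by edgeR) became 0.076 without control male replicate 1. Chac1, which degrades glutathione, was 9.39, 24.6, 16.5, 24.6 and 18.7 CPM in controls and 8.11, 13.6 and 25.1 CPM in LKO males (log2 fold change -0.26, SE 0.33). Ppp1r15a, which directs a phosphatase back to eIF2, had medians of 28.1 and 22.6 CPM (log2 fold change -0.17, SE 0.13). Ddit4, an inhibitor of mTORC1 signalling, spread from 6.50 to 53.0 CPM among the LKO males, so that its SE of 0.46 exceeded its log2 fold change of 0.25. Sesn2, a leucine sensor that also inhibits mTORC1, had medians of 14.3 and 18.8 CPM (log2 fold change 0.23, SE 0.24), and Stc2, a secreted glycoprotein, had at most 15 counts in any male liver and was not tested.

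Of the serine and one-carbon enzymes in males, Psph, which completes serine synthesis, was 7.73, 7.41, 9.56, 11.8 and 8.85 CPM in controls and 6.004, 7.15 and 8.20 CPM in LKO males at the lowest, median and highest. The log2 fold change was -0.38 (SE 0.14, adjusted p = 0.306 by edgeR). Mthfd1l, the mitochondrial formyltetrahydrofolate synthetase, was 2.15, 5.19 and 10.8 CPM in LKO males at the lowest, median and highest, with a mean of 6.26 against 4.37 CPM in controls (log2 fold change 0.50, SE 0.47, adjusted p = 0.718 by edgeR). Control male replicate 4 stood at 0.563 CPM and the other controls at 4.45 to 6.96, and without replicate 4 the estimate was 0.23. Psat1 was 2.46, 1.35, 3.78, 1.29 and 0.752 CPM in controls and 0.937, 1.57 and 2.18 CPM in LKO males, and its log2 fold change of -0.32 (SE 0.38) became 0.095 without control male replicate 3. Mthfd2 was 3.31, 0.941, 3.07, 2.25 and 2.83 CPM in controls and 0.743, 2.29 and 3.51 CPM in LKO males (log2 fold change -0.12, SE 0.37). Shmt2 and Phgdh had -0.03 (SE 0.08) and -0.22 (SE 0.45).

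Among transporters and tRNA export in males, the tRNA exportin Xpot was 43.0, 45.4, 46.8, 39.9 and 40.3 CPM in controls and 46.2, 53.8 and 55.2 CPM in LKO males. One LKO liver lay inside the control range. Xpot had a log2 fold change of 0.26 (SE 0.08, adjusted p = 0.274 by edgeR), between 0.24 and 0.31 when single livers were left out. Asns, the asparagine synthetase and a classical ATF4 target, was 3.31, 0.588, 6.55, 2.57 and 1.73 CPM in control males and 0.991, 1.68 and 3.57 CPM in LKO males (log2 fold change -0.62, SE 0.49, adjusted p = 0.645 by edgeR). Without control male replicate 3, the highest of them, its estimate was -0.073. Gpt2 had medians of 385 and 449 CPM and the second highest log2 fold change of the set in males, after Mthfd1l (0.31, SE 0.18, adjusted p = 0.497 by edgeR). The mitochondrial carboxykinase Pck2 had -0.20 (SE 0.23), the proline enzyme Pycr1 -0.14 (SE 0.50) and Cth 0.00 (SE 0.29). Without control male replicate 3 the Pycr1 estimate was 0.58. Cth was 382 CPM in control male replicate 4 and 109 to 183 CPM in the other control males, and without replicate 4 its estimate was 0.42. Of the amino acid carriers, the heavy chain Slc3a2 had -0.04 (SE 0.12), its light chain Slc7a5 -0.14 (SE 0.19) and the cationic amino acid carrier Slc7a1 0.08 (SE 0.29).

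**Figure D2:**
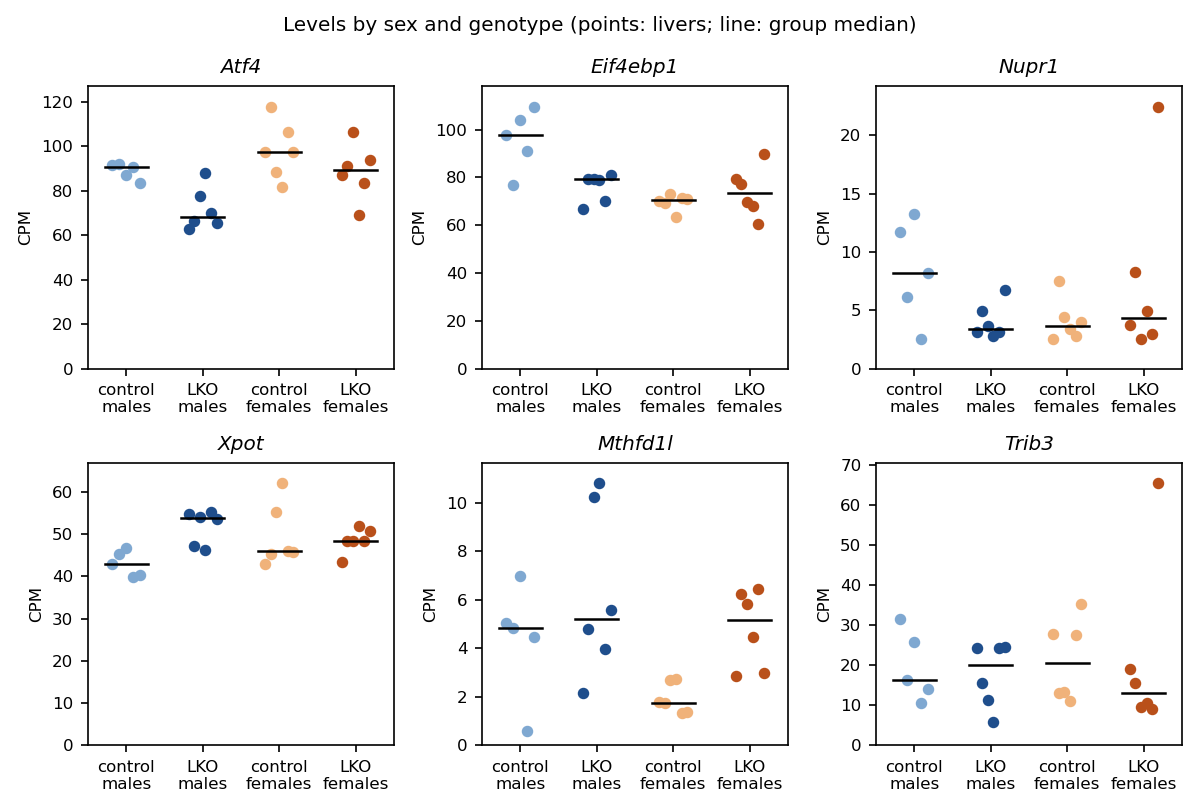
Each point is 1 liver, the vertical axis is CPM from 0, and the line is the median of the group. Atf4, Eif4ebp1 and Nupr1 sit lower in LKO than in control males with some overlap, Mthfd1l in LKO females lies between 2.86 and 6.45 CPM, above all control females, and 1 LKO female is far above the rest for Nupr1 and Trib3.

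In females, Mthfd1l was the 1 gene of the set that passed the test, and it rose in LKO livers. Of the 32 genes 27 were tested (not Stc2, Phgdh, Aldh1l2, Asns and Slc7a11). The 1 call is 3.70 percent of them, against a background of 1.42 percent (194 of 13684 genes), or 0.928 percent for genes called higher. Mthfd1l (chromosome 10, 3923118 to 4117081, plus strand) was 1.34, 1.75 and 2.74 CPM at the lowest, median and highest in control females and 2.86, 5.15 and 6.45 CPM in LKO females, or 20 to 43 counts per library against 45 to 112. No LKO liver overlapped a control. It was 1 of 27 tested members without overlap, against 1.58 percent of all genes. The log2 fold change was 1.30 (SE 0.25, adjusted p = 0.0202 by edgeR). DESeq2 gave an adjusted p of 0.000163 for it and called no other member of 30, against 3.64 percent of all genes. The call rests on few livers: without control female replicate 1, 5 or 6, or without LKO female replicate 2 or 3, the edgeR adjusted p lay between 0.0514 and 0.0597, with log2 fold changes of 1.22 to 1.28. In a fit of all 23 samples the log2 fold change was 1.31 and the edgeR adjusted p 0.139.

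The other 26 tested genes did not pass. At an unadjusted edgeR p under 0.05 there were 2 of 27 members (7.41 percent), Mthfd1l and Ppp1r15a, against 15.6 percent of all genes. Their log2 fold changes had a median of 0.01, as did all genes tested, with 13 of 27 below 0 (48.1 percent, against 48.9 percent). The transcription factors had a median of -0.10 over 8 genes. Atf4 was 81.8, 97.5 and 118 CPM in control females (lowest, median, highest) and 68.8, 89.2 and 106 CPM in LKO females. The log2 fold change was -0.15 (SE 0.11, adjusted p = 0.540 by edgeR), and the ranges overlapped. Ddit3 was 6.18, 8.57 and 15.3 CPM in controls and 6.09, 9.54 and 16.3 CPM in LKO females (log2 fold change 0.04, SE 0.26). Atf3 was 51.4, 76.9 and 174 CPM in controls and 51.9, 79.0 and 155 CPM in LKO females (log2 fold change -0.23, SE 0.32). The remaining factors Atf5, Cebpb and Jdp2 had -0.05 (SE 0.20), -0.33 (SE 0.24) and -0.32 (SE 0.23), and Atf5 was 547, 594 and 737 CPM in controls and 377, 558 and 889 CPM in LKO females. Cebpg was 37.8, 41.8 and 52.3 CPM in controls and 43.2, 49.2 and 54.6 CPM in LKO females (log2 fold change 0.16, SE 0.09, adjusted p = 0.423 by edgeR). Ppp1r15a was 24.4, 39.5 and 46.0 CPM in controls and 25.0, 26.3 and 38.8 CPM in LKO females, where 5 of 6 livers were under 32 CPM (log2 fold change -0.36, SE 0.16, adjusted p = 0.298 by edgeR). Eif4ebp1 had medians of 70.5 and 73.5 CPM and Xpot of 45.9 and 48.3 CPM, with log2 fold changes of 0.09 (SE 0.09) and -0.03 (SE 0.09).

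The remaining effectors and enzymes in females were spread widely or stayed close to the controls. Chac1 was 10.2, 19.3 and 38.2 CPM in control females and 5.02, 17.8 and 49.2 CPM in LKO females (log2 fold change -0.12, SE 0.48). Ddit4 had the lowest log2 fold change of the set, -1.17 (SE 0.70, adjusted p = 0.454 by edgeR), with 4.46 to 135 CPM in controls and 2.81 to 42.9 CPM in LKO females. Control female replicate 1 gave the 135 CPM, and without it the log2 fold change of Ddit4 was -0.52. Psph was 3.86, 5.50 and 6.36 CPM in controls and 4.81, 5.39 and 6.35 CPM in LKO females (log2 fold change 0.08, SE 0.14). Asns, not tested in females, had 0, 0.239 and 0.411 CPM in controls and 0, 0.434 and 1.55 CPM in LKO females, or 0 to 6 and 0 to 30 counts. Sesn2, Shmt2, Gpt2 and Pck2 had log2 fold changes of -0.05 to 0.10, Pycr1 0.29 (SE 0.29) and Cth -0.31 (SE 0.20). The carriers Slc3a2, Slc7a5 and Slc7a1 had -0.06 (SE 0.08), -0.05 (SE 0.12) and 0.36 (SE 0.25).

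LKO female replicate 6 stood apart, and several estimates in females rest on it. It had the highest value of its group in 15 of 29 members. Trib3 was 65.4 CPM there and 8.98 to 19.04 CPM in the other 5 LKO females, against 10.9, 20.4 and 35.3 CPM in controls. With it the log2 fold change of Trib3 was 0.01 (SE 0.47, adjusted p = 0.996 by edgeR), and without it -0.75. Nupr1 was 22.4 CPM there and 2.57 to 8.25 CPM in the others, against 2.56 to 7.52 CPM in control females. Its log2 fold change was 0.86 (SE 0.48, adjusted p = 0.414 by edgeR), and 0.12 without that liver. Psat1, the aminotransferase of serine synthesis, had 0.366, 0.725 and 1.39 CPM in control females and 0.446, 1.35 and 3.51 CPM in LKO females, the highest again in replicate 6. Its log2 fold change of 0.94 (SE 0.47, adjusted p = 0.353 by edgeR) became 0.49. Mthfd2, the mitochondrial folate dehydrogenase, had 0.804, 0.937 and 1.56 CPM in controls and 0.834, 1.30 and 3.51 CPM in LKO females, and 0.63 (SE 0.34, adjusted p = 0.396 by edgeR) became 0.26. Mthfd1l did not share this: replicate 6 had 2.99 CPM, the second lowest of the LKO females, and without it the log2 fold change was 1.41 (adjusted p = 0.0150 by edgeR).

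The same liver lay far from the other LKO females over all genes. The mean chi-square per gene between its counts and theirs was 62.2 to 79.0, against 14.1 to 43.3 among the others. It also stood apart in its neutrophil markers. The 9 of them in the tables summed to 29.4 CPM there, against 7.95 to 10.9 CPM in the other LKO females. Its 10 macrophage markers summed to 1391 CPM, the highest of the 23 livers but near the 1341 CPM of control female replicate 6. Its hepatocyte markers summed to 66866 CPM, the lowest of its group, with LKO female replicate 3 near it at 71248 CPM. Its stellate markers summed to 242 CPM, against 329 to 458 CPM in the other LKO females. Its endothelial markers summed to 289 CPM, the lowest of the 23 livers, with LKO female replicate 2 near it at 312 CPM. Its bile duct markers, at 82.1 CPM, lay inside the range of the other LKO females. The part of these in the values of Trib3 and Nupr1 was not tested. Another liver, LKO female replicate 5, had 44.9 CPM of summed lymphocyte markers, against a group median of 11.9. The secreted ATF4 targets were high in LKO female replicate 6 as well, with 64.7 CPM of the hormone Fgf21 and 544 CPM of Gdf15, each the highest of its group. Over all females Fgf21 had medians of 5.65 CPM in controls and 14.5 CPM in LKO livers (log2 fold change 1.91, SE 0.53, adjusted p = 0.0906 by edgeR, DESeq2 adjusted p = 0.0400), and 1.15 without LKO female replicate 6. In males the Fgf21 estimate was -0.80 (SE 0.36, adjusted p = 0.386 by edgeR), and -0.29 without control male replicate 3, which had the highest value of the control males at 38.4 CPM. Gdf15 had log2 fold changes of -0.48 (SE 0.25) in males and 0.22 (SE 0.15) in females, neither called.

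**Figure D3:**
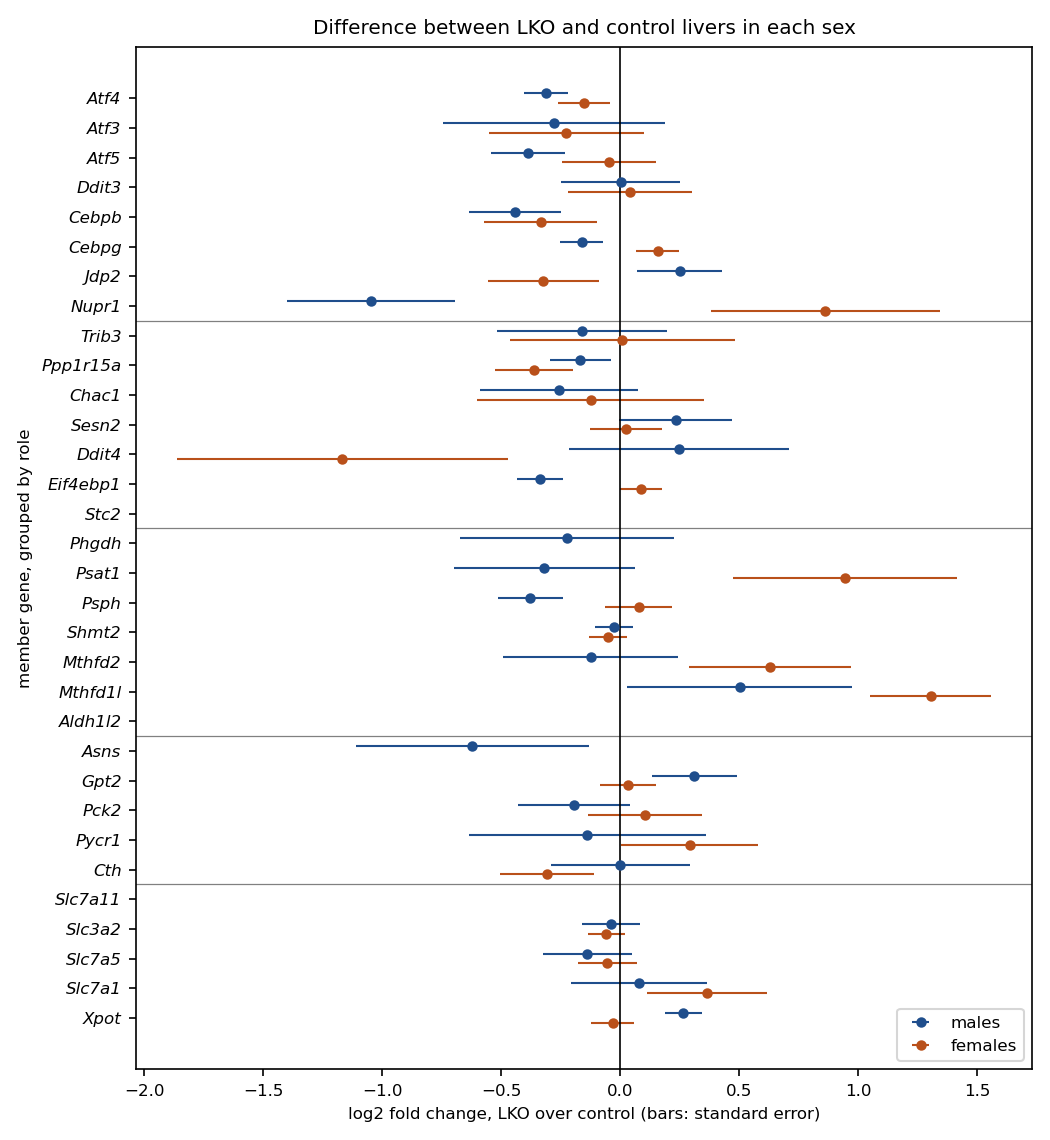
The horizontal axis is the log2 fold change of LKO over control livers, with points for males in blue and females in orange and bars of 1 standard error. Genes without a point were not tested in that sex. Nupr1 lies at -1.05 in males and 0.86 in females. In females the serine and one-carbon enzymes Psat1, Mthfd2 and Mthfd1l lie at 0.63 to 1.30, Psph and Shmt2 at 0.08 and -0.05, and Ddit4 at -1.17. Most other genes lie near 0. Without LKO female replicate 6 the female values of Nupr1, Psat1 and Mthfd2 were 0.12, 0.49 and 0.26.

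Whether the genotype effect differed between the sexes was tested on all 23 livers as an interaction, with the female minus the male log2 fold change. Of 30 members tested 0 were called by edgeR, as for all 14503 genes (a background of 0 percent). DESeq2 called 0 of 27 members and 72 of all genes (0.532 percent). At an unadjusted edgeR p under 0.05 there were 6 of 30 members, against 12.9 percent of all genes. These were Eif4ebp1 (0.42, SE 0.13, adjusted p = 0.208), Nupr1 (1.91, SE 0.65, adjusted p = 0.258), Xpot (-0.30, SE 0.12, adjusted p = 0.325), Cebpg (0.32, SE 0.13, adjusted p = 0.327), Psph (0.46, SE 0.19, adjusted p = 0.339) and Asns (1.94, SE 0.93, adjusted p = 0.382). Without LKO female replicate 6 the Nupr1 estimate was 1.17 and that of Asns 1.24. Asns did not pass the filter within females, with 0 to 6 counts per library in controls and 0 to 30 in LKO livers. For Mthfd1l, called in females and not in males, the difference was 0.80 (SE 0.57, adjusted p = 0.579 by edgeR), so that a difference between the sexes was not shown.

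The control livers of the 2 sexes were then compared, as control females minus control males. Sex coincides with the deposited table here, so the 2 cannot be told apart. Among cell type markers, edgeR called 4 of 10 macrophage genes (Timd4, Csf1r, Clec4f and Vsig4) higher in control females. It also called 3 of 10 hepatocyte genes (Alb, Hnf4a and Cps1) higher. Of 10 stellate markers it called 2 lower (Lum and Col1a1), and of 9 bile duct markers 1 lower (Spp1). Of 10 endothelial markers it called Vwf lower and Stab2 higher. The part of these markers in the results below was not tested. Of 26 members tested 5 were called (19.2 percent), near the background of 18 percent (2466 of 13699 genes). Eif4ebp1 was lower in females, at 63.4, 70.5 and 72.9 CPM (lowest, median, highest), with every control male above, at 76.9 to 110 CPM (log2 fold change -0.46, SE 0.09, adjusted p = 0.00447 by edgeR). Psph was also lower without overlap, at 3.86, 5.50 and 6.36 CPM in females against 7.41 to 11.8 CPM in males (log2 fold change -0.80, SE 0.16, adjusted p = 0.00472 by edgeR). These 2 are 7.69 percent of the tested members, against 10.3 percent of all genes without overlap. Both held in every fit that left out 1 liver. Mthfd2 was lower in females (0.804, 0.937 and 1.56 CPM) than in control males, which had 3.31, 0.941, 3.07, 2.25 and 2.83 CPM (log2 fold change -1.20, SE 0.31, adjusted p = 0.0183 by edgeR). Without control male replicate 1 the log2 fold change of Mthfd2 was -1.08 and its edgeR adjusted p 0.0506.

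Atf3 and Ppp1r15a were higher in control females. Atf3 was 49.2, 60.7, 42.4, 57.9 and 18.4 CPM in control males, and 51.4, 76.9 and 174 CPM in control females (log2 fold change 1.15, SE 0.36, adjusted p = 0.0431 by edgeR). Its call was lost in 7 of the 11 fits that left out 1 liver, namely control male replicate 1, 2, 3 or 6 or control female replicate 2, 3 or 6, with log2 fold changes of 0.92 to 1.26, and with library size alone (adjusted p = 0.0537 by edgeR). Ppp1r15a was 20.9, 28.6, 29.5, 28.1 and 22.2 CPM in males and 24.4, 39.5 and 46.0 CPM in females (log2 fold change 0.52, SE 0.17, adjusted p = 0.0496 by edgeR), and was lost in 9 of the 11, all but those without control female replicate 3 or 4, with log2 fold changes of 0.45 to 0.57 and an adjusted p of up to 0.116. RLE factors, library size alone and no filter also ended it, at 0.0520, 0.0789 and 0.0523. DESeq2 called 9 of 30 members, against 18.2 percent of all genes, adding Asns, Mthfd1l, Nupr1 and Psat1, all lower in females.

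Of the 5 serine and one-carbon enzymes tested between control sexes, edgeR called Psph and Mthfd2, both lower in females, and did not call Psat1, Mthfd1l and Shmt2. The 5 log2 fold changes ran from -1.30 to -0.05, all below 0, where 49.5 percent of all genes tested were below 0. Their median was -1.19, against 0.00 for all genes. Other roles leaned the other way, with 4 of 4 transporters and tRNA export genes and 5 of 6 feedback and effector genes above 0. Above 0 were also 5 of 8 transcription factors and 1 of 3 other amino acid enzymes. Psat1 was 0.366, 0.725 and 1.39 CPM in control females and 0.752 to 3.78 CPM in control males (log2 fold change -1.30, SE 0.45, adjusted p = 0.0594 by edgeR), and Mthfd1l had -1.19 (SE 0.41, adjusted p = 0.0621 by edgeR). Shmt2, the most abundant of them, had -0.05 (SE 0.08, adjusted p = 0.689 by edgeR). Asns did not pass the filter here, with 0 to 6 counts per library in control females and 10 to 111 in control males. The control females had 0 to 0.411 CPM, a mean of 7.20 percent of that of the control males, and no female library, at 0 to 1.55 CPM over both genotypes, reached the control male median of 2.57 CPM. DESeq2, which tested Asns, gave a log2 fold change of -3.81 and an adjusted p of 5.78e-08, and without the filter edgeR also called it. Nupr1 had -1.04 (SE 0.37, adjusted p = 0.0651 by edgeR).

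**Figure D4:**
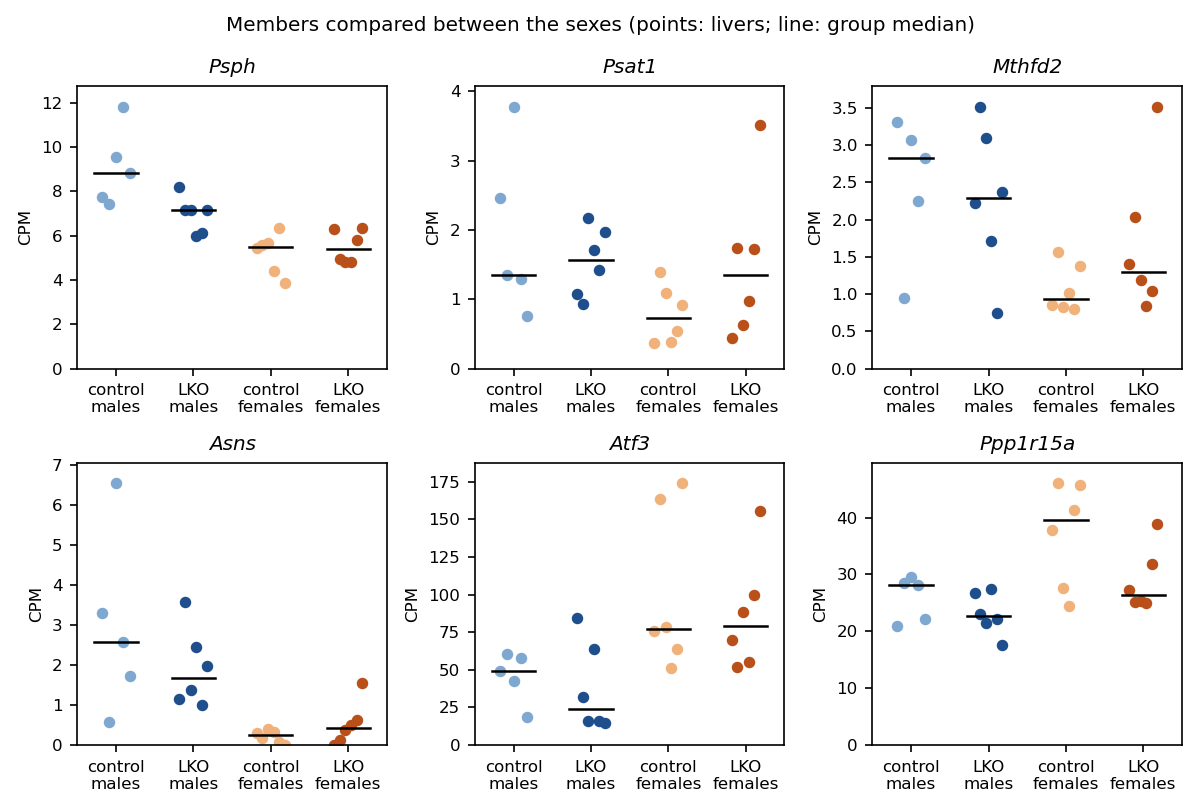
Each point is 1 liver, the vertical axis is CPM from 0, and the line is the median of the group. Psph, Mthfd2 and Asns sit lower in control females than in control males, Asns between 0 and 0.411 CPM against 0.588 to 6.55 CPM. For Mthfd2 control male replicate 2, at 0.941 CPM, lies inside the control female range. Atf3 and Ppp1r15a sit higher in control females, with overlap.

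Other genes of the pathway were counted in 5 lists, with calls by edgeR unless DESeq2 is named. The upstream list held 15 genes, namely eIF2 kinases, subunits of eIF2 and its exchange factor eIF2B, and also Ppp1r15b, Dnajc3 and Impact. Of these, 0 were called between genotypes in males or females. The lowest p in males was that of the eIF2 subunit Eif2s3x (0.33, SE 0.13, adjusted p = 0.315 by edgeR), and in females that of the eIF2B subunit Eif2b3 (0.27, SE 0.12, adjusted p = 0.304 by edgeR). Of 20 cytosolic aminoacyl-tRNA synthetases, which charge tRNAs and are in large part ATF4 targets, 0 were called, with Dars at 0.20 in males (SE 0.08, adjusted p = 0.347 by edgeR) and Tars at -0.29 in females (SE 0.11, adjusted p = 0.231 by edgeR). Of 29 further ATF4 targets 27 were tested and edgeR called 0 in either sex, the lowest p being that of the glycine transporter Slc6a9 in males (0.36, SE 0.13, adjusted p = 0.304 by edgeR) and of Fgf21 in females. Of 12 genes for mitochondrial chaperones, proteases and the relay from mitochondria to eIF2, 0 were called, with the protease subunit Clpp at -0.20 in males (SE 0.08, adjusted p = 0.359 by edgeR) and the co-chaperonin Hspe1 at 0.29 in females (SE 0.11, adjusted p = 0.226 by edgeR). Of 16 basic leucine zipper partners 0 were called, with Cebpa at -0.28 in males (SE 0.09, adjusted p = 0.274 by edgeR) and Creb3l3 at 0.24 in females (SE 0.09, adjusted p = 0.223 by edgeR). DESeq2 called 4 of the further targets in females (Fgf21, Herpud1, Tsc22d3 and Vegfa), against 3.64 percent of all genes, and Cebpa in males, against 1.45 percent, and 0 in the other lists between genotypes. At an unadjusted edgeR p under 0.05, the 5 lists in this order held 1, 1, 4, 1 and 2 genes in males and 1, 3, 10, 1 and 2 in females, where all genes gave 12.5 and 15.6 percent. Of the 10 further targets in females, out of 27 tested, 7 had lower means in LKO livers and 3 higher. In males 2 were lower and 2 higher, and the 3 synthetases in females were all lower. The median log2 fold changes of the 5 lists were 0.06, 0.02, 0.02, 0.04 and -0.03 in males and 0.02, -0.07, -0.13, 0.00 and -0.05 in females. Between control sexes, the calls in the same order were 4 of 15, 2 of 20, 9 of 27, 0 of 12 and 2 of 16, against 18 percent of all genes tested.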

How the data were processed

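Poly-A RNA libraries made with dUTP, which keeps the strand, were sequenced from 23 livers, per the labels' protocols. HISAT2 2.0.5 and mm39 are named in the submitters' processing notes. The counter and its use of strand are not given in the sources used here, so overlapping and antisense genes are uncertain. The deposited files are a male table of 24434 genes and a female table of 24940. They hold raw counts per gene, counts over a size factor (a normalized signal), FPKM, and the authors' own log2 fold changes and p-values with their adjustment, which were not used here. FPKM was used only to compare levels between genes. No column of per-sample values was left unmapped, and no 2 libraries agreed within sampling noise.

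The deposited counts were tested with edgeR 4.0.16 in R 4.3.3 (filterByExpr, TMM, quasi-likelihood, Benjamini-Hochberg over all genes tested, called at adjusted p under 0.05). Males and females had separate fits, the interaction was fitted on 23 samples and the sexes were compared on 11 controls, the last 2 over genes in both tables. Alternatives were RLE factors, library size alone, no filter, at least 10 counts in every sample, DESeq2 1.42.0, a replicate block, all 23 samples, and leaving out each liver. The scripts were tested on simulated data. The members and lists were chosen with earlier results of these data known. Values were chosen for 16 members. They are Atf4, Ddit3, Trib3, Asns, Chac1, and members without overlap or with the lowest p. The lowest p were taken as 6 per sex, 3 for the interaction and 4 between sexes. Values are mostly each liver in control males and the lowest, median and highest in groups of 6. In some groups only medians are given, as for Cebpg in males and Xpot in females. Summaries or fold changes are given for Cpt1a, Fgf21, Gdf15 and for each list its gene of lowest p. Cebpb, Ddit4, Gpt2 and other members named beside these were chosen after their values were seen. Positions are as in the tables, and promoters are of GRCm38.p6, so the 2 are not comparable.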

Additional observations from a re-analysis of the deposited data

Results flagged for a closer look

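In 64 groups of the 16 members chosen for values, the highest and lowest liver were compared with the nearest other value of the group. Of the gaps, 3 were large for the size of the group. Chance gives about 1 in 20 groups, and 3 of 64 is near that share. Trib3 in LKO female replicate 6 was 65.4 CPM, with the next value at 19.04 CPM. Nupr1 in the same liver was 22.4 CPM, with the next at 8.25 CPM. Nupr1 in control female replicate 2 was 7.52 CPM, with the next at 4.38 CPM. That control liver had 19.7 CPM of summed neutrophil markers, the highest of the control females, as LKO female replicate 6 had in its own group, and the part of this in the values was not tested.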

How the results depend on the processing

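The count of all genes called in males was 1, and 2 with library size alone, with no filter and with a replicate block, 3 with at least 10 counts in every sample, 5 in the fit of all 23 samples, 107 with DESeq2 and 1 to 2 leaving out 1 liver. The members called in males stayed at 0 throughout. In females the 194 genes became 554 with DESeq2, 334 with a replicate block, 94 in the fit of all 23 samples and 87 to 233 leaving out 1 liver, and the 1 member became 0 in the fit of all 23 samples and 0 to 1 leaving out 1 liver. The interaction called 72 genes with DESeq2 and 0 to 17 leaving out 1 liver, 17 of them without control male replicate 4. Between control sexes, the 5 members became 3 with library size alone, 9 with DESeq2 and 2 to 8 leaving out 1 liver: with control male replicate 1 left out 2, with control male replicate 3 or control female replicate 6 left out 3, and with control male replicate 4 left out 8. The median log2 fold change of the female members, near 0, was -0.024 with at least 10 counts in every sample and -0.023 with the replicate block. Replicate numbers were not taken as pairing the livers, since not every same-numbered pair's deviations correlated above 0.1 (-0.299 to 0.376 in males, -0.0028 to 0.137 in females). In females 4 of 6 pairs exceeded 0.1 and 4 of 6 livers matched their own number best, a hint from the data and not from the design, against 1 of 5 on both counts in males. With the replicate block Mthfd2 in males turned to 0.094 and Trib3 in females to -0.24, and Mthfd1l in females stayed called (edgeR adjusted p = 0.0175). With library size alone Xpot in females turned to 0.012. Leaving out 1 liver, signs turned in these log2 ranges among the 16 members chosen for values. In males these were Ddit3 -0.14 to 0.25, Mthfd2 -0.33 to 0.057, Psat1 -0.53 to 0.095 and Trib3 -0.32 to 0.076. In females they were Atf3 -0.47 to 0.0014, Atf5 -0.19 to 0.059, Chac1 -0.59 to 0.093, Ddit3 -0.15 to 0.22, Trib3 -0.75 to 0.22 and Xpot -0.067 to 0.040. Signs of other members turned as well. In males these were Pycr1 (-0.37 to 0.58), Phgdh (-0.47 to 0.36), Cth (-0.14 to 0.42), Ddit4 (-0.041 to 0.45), Slc7a1, Slc3a2, Pck2 and Shmt2. In females they were Sesn2 (-0.058 to 0.18), Gpt2 and Pck2. Over single genes among the 16 chosen for values, 697 of the alternative values kept their direction and side of the threshold. Of the rest 27 lost a call and 35 changed sign. The cause of these shifts was not tested. Stc2, Aldh1l2 and Slc7a11, with at most 17 counts in any liver, did not pass the filter within either sex, so their depth gave no test there.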
